A study of Mus musculus with 8 samples.

Results

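Transcripts of neurons and radial glia were examined in RNA of sorted brain endothelial cells of E14.5 mouse embryos, a stage of cortical neurogenesis. The set holds 33 genes, 20 known as neuron genes and 13 known as radial glia genes, chosen by name as genes that a sort on CD31, an endothelial surface protein, should exclude. All 33 were found among the 24421 rows of the deposited count table. Of the 8 libraries, 4 came from Flvcr2 knockout embryos and 4 from Flvcr2 heterozygous embryos of the C57Bl6 strain. Heterozygotes carry a mutant allele as well. Per the series' design text the mutation makes cells express GFP, so cells of both genotypes were sorted as GFP+ and CD31+, and no wild-type library is part of the comparison. The labels give the organ as brain and name no brain region, litter, sex or sequencing batch. They do not say whether each library is a separate embryo, and the p-values therefore measure spread among libraries that may be technical.

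Radial glia are the neural stem cells of the embryonic brain. They line the ventricles, divide, and give rise to neurons either directly or through intermediate progenitors. In the cortex this excitatory lineage passes through the transcription factors Pax6, Neurog2, Eomes, Neurod1 and Tbr1, while the ventral forebrain makes GABA neurons under the Dlx homeobox genes. Endothelial cells grow into this tissue from outside it and lie against the processes of radial glia.

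Promoter sequences are shown for 4 members that the values turn on. Tubb3 was the most abundant neuron member, Fabp7 the most abundant radial glia member, Gad2 had the largest fold change among called members, and Neurod2 had the largest among called members of the excitatory lineage. Each run is the 250 bases before an annotated start, read 5′ to 3′ along the gene, from RefSeq on GRCm38.p6. The Gad2 run lies inside the annotated span of the gene, which begins at 22621015, so it precedes a later, internal start. Capitals mark exact matches on either strand to CAGATG, an E-box form bound by proneural factors, and to GGACAGC, the right part of the site of the repressor REST.
Tubb3, chr8:123411303-123411552, + strand: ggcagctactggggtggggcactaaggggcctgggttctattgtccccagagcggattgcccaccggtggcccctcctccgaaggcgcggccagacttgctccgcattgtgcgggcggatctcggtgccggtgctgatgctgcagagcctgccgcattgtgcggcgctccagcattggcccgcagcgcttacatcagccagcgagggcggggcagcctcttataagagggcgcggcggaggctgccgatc
Neurod2, chr11:98329646-98329895, - strand: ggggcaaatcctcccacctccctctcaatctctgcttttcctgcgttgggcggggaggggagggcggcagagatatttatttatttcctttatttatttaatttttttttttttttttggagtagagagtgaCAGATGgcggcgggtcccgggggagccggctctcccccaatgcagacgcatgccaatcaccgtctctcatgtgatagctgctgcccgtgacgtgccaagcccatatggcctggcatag
Gad2, chr2:22622077-22622326, + strand: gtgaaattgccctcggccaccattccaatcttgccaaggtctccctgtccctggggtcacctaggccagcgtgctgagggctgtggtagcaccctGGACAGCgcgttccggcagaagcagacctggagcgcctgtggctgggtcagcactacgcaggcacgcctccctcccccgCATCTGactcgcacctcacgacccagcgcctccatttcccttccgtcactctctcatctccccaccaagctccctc
Fabp7, chr10:57784673-57784922, + strand: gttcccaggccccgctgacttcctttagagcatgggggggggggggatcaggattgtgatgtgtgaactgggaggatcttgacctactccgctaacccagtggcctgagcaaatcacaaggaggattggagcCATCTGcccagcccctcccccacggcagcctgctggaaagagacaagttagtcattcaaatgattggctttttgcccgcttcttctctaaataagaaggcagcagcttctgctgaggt

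The E-box match began 118 bases before the start in Neurod2 and in Fabp7, and 76 bases before the internal start of Gad2. The GGACAGC match of Gad2 began 155 bases before the same internal start, and the marked matches did not overlap each other. Promoter windows were matched for 29 of the 33 members, in 38 windows because some genes have several starts. CAGATG was found in 15.8% of member windows and in 14.4% of all 32851 windows. ACAAAG, a core sequence of SOX factor sites, was found in 18.4% of member windows and in 16.5% of all windows, and GGACAGC in 7.89% and 5.28%. The left part of the REST site, TTCAGCACC, was found in 0 of the 38 member windows and in 0.301% of all windows. The windows are GC-rich, with a median of 57.8% for members and 52.4% for all windows. Sox3, Snap25, Nefl and Nefm were not matched.

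Libraries held 12076498 to 35861108 counts in knockout and 9107329 to 22615252 counts in heterozygous libraries. Flvcr2, listed under its older symbol Mfsd7c, was at 393, 227, 260 and 326 CPM (counts scaled to a common library size, with TMM-adjusted sizes) in knockout libraries, against 276, 444, 578 and 409 CPM in heterozygous libraries. The genotypes overlapped and the gene was not called (log2 fold change -0.50 ± 0.24, SE; edgeR adjusted p = 0.209). Transcripts of the mutant allele that keep exons of the gene would be counted under this symbol too. Whether the allele makes such transcripts was not given in the sources used here, so the level is no check of genotype. The 16 listed endothelial genes, led by Cldn5 and Cd34, were detected in every library, and none was at 0 throughout. Their summed level ran from 12741 to 17591 CPM in knockout and from 8561 to 14647 CPM in heterozygous libraries, lowest in heterozygous 1. The list was not uniform between genotypes. Emcn and Cd34 were higher in knockout libraries, at log2 fold changes of 1.19 and 1.0 (edgeR adjusted p = 0.00321 and 0.00745), and Slco1c1, a transporter gene of brain endothelium, fell by 1.26 on the log2 scale (edgeR adjusted p = 0.0270).

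Neuron and radial glia transcripts were counted in all 8 libraries, and the 33 genes made up a small share of all counts. This is the share of the listed genes alone, and the share of RNA from neurons and radial glia was not estimated. The 33 genes held 0.0321%, 0.0118%, 0.0542% and 0.0130% of all counts in knockout 1 to 4, against 0.257%, 0.0476%, 0.124% and 0.0604% in heterozygous 1 to 4. The genotypes overlapped in this share, because knockout 3 lay above heterozygous 2. The 20 neuron genes summed to 188, 65.6, 281 and 81.5 CPM in knockout libraries, against 1837, 300.02, 772 and 362 CPM in heterozygous libraries, and here the genotypes did not overlap. The 13 radial glia genes summed to 156, 58.6, 271 and 53.5 CPM in knockout libraries, against 499.8, 161, 428 and 242 CPM in heterozygous libraries, with knockout 3 above heterozygous 2 and 4. Set against the summed counts of the 16 endothelial genes, the 33 genes held 19.6, 9.75, 39.0 and 8.35 counts per 1000 in knockout libraries, against 273, 34.6, 81.95 and 46.1 per 1000 in heterozygous libraries. In bulk RNA, fewer cells of a type and less RNA per cell cannot be told apart.

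Levels per kilobase of annotated exon (CPM per kb, GENCODE M21) were led by a radial glia and a neuron gene. In knockout libraries Fabp7 averaged 66.6 CPM per kb, Tubb3 33.2, Hopx 12.2 and Neurod6 6.84. In heterozygous libraries Tubb3 averaged 181 CPM per kb, Fabp7 144, Neurod6 39.9 and Ina 19.6. The lowest members were Ptprz1 at 0.0702 CPM per kb in knockout libraries and Sox1 at 0.427 CPM per kb in heterozygous libraries. All 33 genes passed the filter on low counts, which asks for 0.557 CPM in at least 4 of the 8 libraries. Of them, 20 were over that level in all 4 knockout libraries and 30 in all 4 heterozygous libraries. Neurod1, Tbr1, Emx2, Ptprz1 and Tnc had 0 counts in knockout 2, where 3 counts correspond to 0.261 CPM, and no other library had a member at 0.

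**Figure D1:**
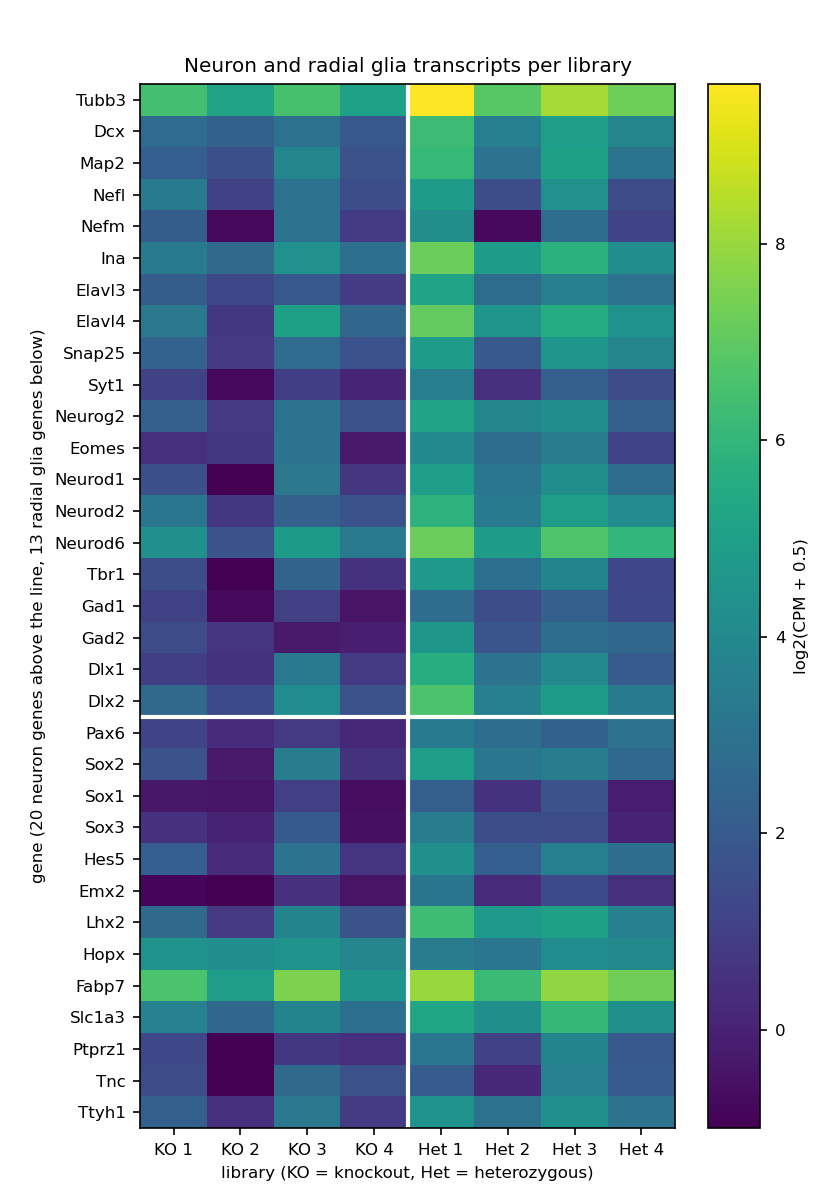
Level of each of the 33 genes, as log2(CPM + 0.5) in colour, in knockout (KO) and heterozygous (Het) libraries 1 to 4; rows are genes, with neuron genes above the white line and radial glia genes below it. Het 1 and Het 3 are the brightest columns for most rows, KO 2 is dark in most, and the Hopx row, not called, is slightly brighter in the KO columns.

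In knockout libraries 11 of the 33 genes were lower than in heterozygous libraries and 0 were higher (edgeR quasi-likelihood test, adjusted p under 0.05; 23 lower and 0 higher at an unadjusted p under 0.05). DESeq2 and limma voom also called 0 members higher. Over all 13540 tested genes, 9.55% were called, 4.02% as lower and 5.53% as higher. The 749 higher and 544 lower genes became 539 and 725 when counts were scaled by library size only, and 218 and 638 when library sizes were set by the 16 endothelial genes. Over all genes the median was -0.03 on the log2 scale with TMM, and -0.15 and -0.35 with these scalings. The members' median was -2.27 with TMM, -2.43 with library size alone and -2.83 with endothelial library sizes. Of the 33 log2 fold changes 32 were negative, and the range ran from -3.29 for Emx2 to 0.48 for Hopx. Groups did not overlap, with knockout lower, for 9 of the 33 genes, against 7.9% of all tested genes. They did not overlap, with knockout higher, for 0 of the 33 genes, against 9.7% of all tested genes.

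The number of called members depended on single libraries. Of the 20 neuron genes 8 were called lower with all libraries, 14 without knockout 3, and 0 without knockout 4 (12 at an unadjusted p under 0.05). It was 1 without heterozygous 1, 2 without heterozygous 3, 2 without knockout 1 and 3 without knockout 2. Of the 13 radial glia genes 3 were called lower with all libraries, 5 without knockout 3, and 1 in each fit that left out knockout 1, 2 or 4 or heterozygous 1 or 3. Calls over all genes, 1293 with all libraries, changed too, but not in step with the member calls. Dropping knockout 1, 2, 3 or 4 left 579, 1106, 1347 or 625 calls. Dropping heterozygous 1, 2, 3 or 4 left 787, 902, 790 or 968, while the neuron calls stayed at 8 without heterozygous 2 or 4. Without heterozygous 1 the median log2 fold change of the 33 genes was -1.61, and without knockout 3 it was -2.78.

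**Figure D2:**
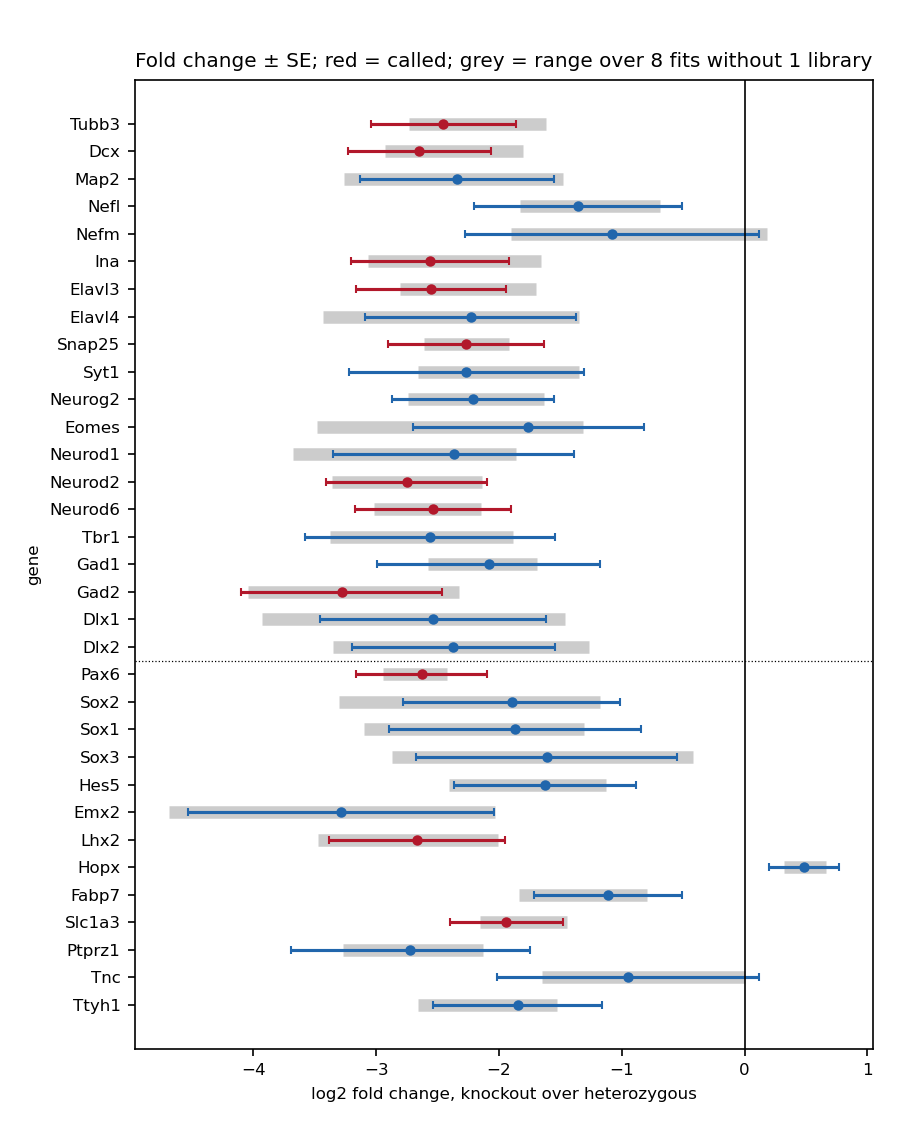
Log2 fold change of each gene, knockout over heterozygous, with its SE; red points are called, blue points are not, and the grey band is the range over the 8 fits that each left out 1 library. Neuron genes stand above the dotted line; 32 of 33 points lie left of 0, and the bands of Nefm and Tnc reach 0.

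The 6 cytoskeletal genes of neurons summed to 120, 50.7, 148 and 49.8 CPM in knockout libraries, against 1135, 168, 437 and 199.8 CPM in heterozygous libraries, and 3 of them were called. Tubb3 (chromosome 8, 123411553 to 123422015), the neuronal beta-tubulin, was at 86.8, 36.3, 91.3 and 33.3 CPM in knockout libraries, against 789, 118, 293 and 156 CPM in heterozygous libraries. The groups did not overlap, and heterozygous 1 stood above all others. Tubb3 alone held 16.6% to 29.2% of the counts of the 33 genes in knockout and 24.4% to 33.8% in heterozygous libraries. It fell by 2.45 ± 0.59 on the log2 scale (SE; edgeR adjusted p = 0.0282), and 3 of the 8 leave-one-out fits called it; the call was lost without knockout 1, 2 or 4 or heterozygous 1 or 3. Tubulin genes share much of their coding sequence, and how reads matching several genes were counted was not given in the sources used here.

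Dcx, the doublecortin gene whose product binds microtubules in migrating neurons, was at 5.98, 4.36, 7.52 and 3.29 CPM in knockout libraries, against 77.4, 11.7, 29.9 and 13.6 CPM in heterozygous libraries. No knockout library reached the lowest heterozygous one. Dcx fell by 2.65 ± 0.58 on the log2 scale (edgeR adjusted p = 0.0197) and kept its call in 6 of the 8 fits, losing it without knockout 1 or 4. Ina, the neuronal intermediate filament alpha-internexin, was at 9.76, 5.84, 20.4 and 6.95 CPM in knockout libraries, against 153, 28.8, 54.3 and 18.1 CPM in heterozygous libraries. Knockout 3 lay above heterozygous 4, and Ina was called with a log2 fold change of -2.56 ± 0.64 (edgeR adjusted p = 0.0330; 3 of 8 fits, the same losses as Tubb3). An exon of Ina overlaps Nt5c2 on the other strand, and Nt5c2 was at 46.1 ± 7.66 CPM in knockout and 66.4 ± 13.5 CPM in heterozygous libraries (SD, n = 4 each). The other 3 cytoskeletal genes were not called. Map2, a microtubule-associated protein of dendrites, had a log2 fold change of -2.34 ± 0.79, and the neurofilament genes Nefl and Nefm had -1.35 ± 0.85 and -1.08 ± 1.20. Nefm was at 1 count each in knockout 2 and heterozygous 2, and its log2 fold change turned to 0.18 without heterozygous 1.

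Both Hu-family RNA-binding genes of neurons were present. Elavl3 was at 3.94, 2.003, 3.30 and 1.36 CPM in knockout libraries, against 36.6, 6.27, 11.95 and 7.44 CPM in heterozygous libraries. The groups did not overlap, and Elavl3 fell by 2.55 ± 0.61 on the log2 scale (edgeR adjusted p = 0.0281; 4 of 8 fits, lost without knockout 1, 2 or 4 or heterozygous 1). Elavl4, the more abundant of the pair in CPM and in CPM per kb, was at 8.995, 1.13, 32.7 and 5.22 CPM in knockout libraries, against 135, 22.6, 47.3 and 21.5 CPM in heterozygous libraries. Knockout 3 lay above heterozygous 2 and 4, and Elavl4 was not called (log2 fold change -2.23 ± 0.86; edgeR adjusted p = 0.131).

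Of the pair of genes of synaptic vesicle release 1 was called. Snap25, a component of the fusion complex at nerve terminals, was at 4.50, 1.22, 5.98 and 2.74 CPM in knockout libraries, against 29.1, 3.40, 23.8 and 13.6 CPM in heterozygous libraries. Heterozygous 2 lay within the knockout range. Snap25 was called with a log2 fold change of -2.27 ± 0.64 (edgeR adjusted p = 0.0491; 2 of 8 fits, kept without knockout 3 or heterozygous 2). Syt1, the calcium sensor of release, averaged 0.945 ± 0.738 CPM in knockout and 4.61 ± 4.60 CPM in heterozygous libraries (SD, n = 4 each) and was not called.

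In the excitatory lineage 2 of 6 factors were called, Neurod2 and Neurod6, both of them genes of differentiating neurons. Neurod2 was at 8.64, 1.13, 4.27 and 2.80 CPM in knockout libraries, against 58.5, 9.56, 29.2 and 16.9 CPM in heterozygous libraries. The highest knockout library lay just below the lowest heterozygous one. Neurod2 fell by 2.75 ± 0.66 on the log2 scale (edgeR adjusted p = 0.0274; 5 of 8 fits, lost without knockout 4 or heterozygous 1 or 3). Neurod6, the most abundant factor of the lineage in CPM and in CPM per kb, was at 19.4, 2.79, 27.4 and 9.26 CPM in knockout libraries, against 147, 28.1, 102 and 65.5 CPM in heterozygous libraries. Here knockout 3 and heterozygous 2 lay next to each other without overlap, and Neurod6 fell by 2.54 ± 0.63 on the log2 scale (edgeR adjusted p = 0.0324; 4 of 8 fits, lost without knockout 1 or 4 or heterozygous 1 or 3). The proneural gene Neurog2, the intermediate progenitor gene Eomes, Neurod1 and the deep-layer gene Tbr1 had log2 fold changes of -2.21 ± 0.66, -1.76 ± 0.94, -2.37 ± 0.98 and -2.56 ± 1.02. Their edgeR adjusted p-values ran from 0.0614 to 0.271, so the difference in calls within the lineage is not a tested difference between its members.

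Genes of the GABA lineage gave 1 call among 4. Gad2, one of the pair of GABA-synthesising enzymes, was at 2.25, 1.05, 0.342 and 0.433 CPM in knockout libraries, against 24.3, 2.97, 6.66 and 5.604 CPM in heterozygous libraries. The groups did not overlap. Gad2 fell by 3.28 ± 0.82 on the log2 scale (edgeR adjusted p = 0.0327; 3 of 8 fits, lost without knockout 2, 3 or 4 or heterozygous 1 or 3), with 6 to 44 counts per knockout library. The other enzyme gene, Gad1, averaged 0.873 ± 0.827 CPM in knockout and 3.74 ± 2.07 CPM in heterozygous libraries without overlap and was not called (log2 fold change -2.08 ± 0.91; edgeR adjusted p = 0.178). Dlx2, the most abundant gene of this lineage in CPM and in CPM per kb, was at 5.88, 2.09, 17.7 and 2.80 CPM in knockout libraries, against 96.6, 11.9, 29.2 and 10.1 CPM in heterozygous libraries. Knockout 3 lay above heterozygous 2 and 4, and neither Dlx2 nor Dlx1 was called (log2 fold changes -2.37 ± 0.83 and -2.53 ± 0.92). Dlx1 shares an exon with its antisense gene Dlx1as, at 3.33 ± 4.59 CPM in knockout and 15.3 ± 19.3 CPM in heterozygous libraries, and without a stated strand setting their reads cannot be told apart.

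Among radial glia factors, Pax6 and Lhx2 were called. Pax6, a homeobox and paired-domain factor of dorsal progenitors (chromosome 2, 105668896 to 105698410), was at 1.79, 0.784, 1.25 and 0.635 CPM in knockout libraries, against 9.50, 6.58, 4.35 and 7.32 CPM in heterozygous libraries. The groups were far apart, and heterozygous 3, high for most members, was the lowest heterozygous library here. Pax6 fell by 2.63 ± 0.53 on the log2 scale (edgeR adjusted p = 0.0140) and alone among the 33 genes kept its call in each of the 8 leave-one-out fits. It lost its call when heterozygous 1 and knockout 2, or heterozygous 2 and knockout 1, were left out together. Knockout libraries held 9 to 35 counts of Pax6 each. Lhx2, a LIM-homeobox gene of cortical patterning, was at 5.83, 1.22, 13.5 and 2.83 CPM in knockout libraries, against 78.8, 25.8, 32.3 and 12.3 CPM in heterozygous libraries. Knockout 3 lay above heterozygous 4, and the call of Lhx2 (log2 fold change -2.67 ± 0.72; edgeR adjusted p = 0.0415) held in 2 of 8 fits, those without knockout 3 or heterozygous 4.

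The remaining radial glia factors were not called. The neural stem cell factors Sox2, Sox1 and Sox3 had log2 fold changes of -1.89 ± 0.88, -1.87 ± 1.03 and -1.61 ± 1.06. Hes5, a target of Notch signalling, had -1.62 ± 0.74, and Emx2, a homeobox gene of the dorsal forebrain, had -3.29 ± 1.25 with 0 to 16 counts per knockout library. Hopx, singled out after its values were seen, had the one positive log2 fold change. It was at 21.3, 18.2, 20.8 and 13.7 CPM in knockout libraries, against 10.9, 8.39, 17.7 and 15.6 CPM in heterozygous libraries. Knockout 4 lay below heterozygous 3 and 4, and its log2 fold change was 0.48 ± 0.29 (edgeR adjusted p = 0.324), which was not called. Hopx, a small homeodomain protein, is also known outside neural tissue. An exon of Hopx overlaps the opposite-strand gene Hopxos.

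Genes for membrane and metabolic proteins of radial glia were led by Fabp7, the brain lipid-binding protein. Fabp7 was at 98.03, 30.5, 182 and 22.2 CPM in knockout libraries, against 256, 74.7, 231 and 159 CPM in heterozygous libraries. Knockout 3 lay within the heterozygous range, knockout 1 lay above heterozygous 2, and Fabp7 was not called (log2 fold change -1.11 ± 0.60; edgeR adjusted p = 0.276). It held 41.4% to 67.2% of the radial glia counts in knockout and 46.5% to 65.5% in heterozygous libraries. Slc1a3, the glial glutamate transporter GLAST, was at 12.6, 5.14, 13.3 and 6.78 CPM in knockout libraries, against 39.1, 19.1, 67.7 and 19.48 CPM in heterozygous libraries. The groups did not overlap, and Slc1a3 fell by 1.94 ± 0.46 on the log2 scale (edgeR adjusted p = 0.0270; 3 of 8 fits, lost without knockout 1, 2 or 4 or heterozygous 1 or 3). The receptor phosphatase gene Ptprz1, the membrane protein gene Ttyh1 and the tenascin C gene Tnc were not called, at log2 fold changes of -2.72 ± 0.97, -1.85 ± 0.69 and -0.95 ± 1.07.

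**Figure D3:**
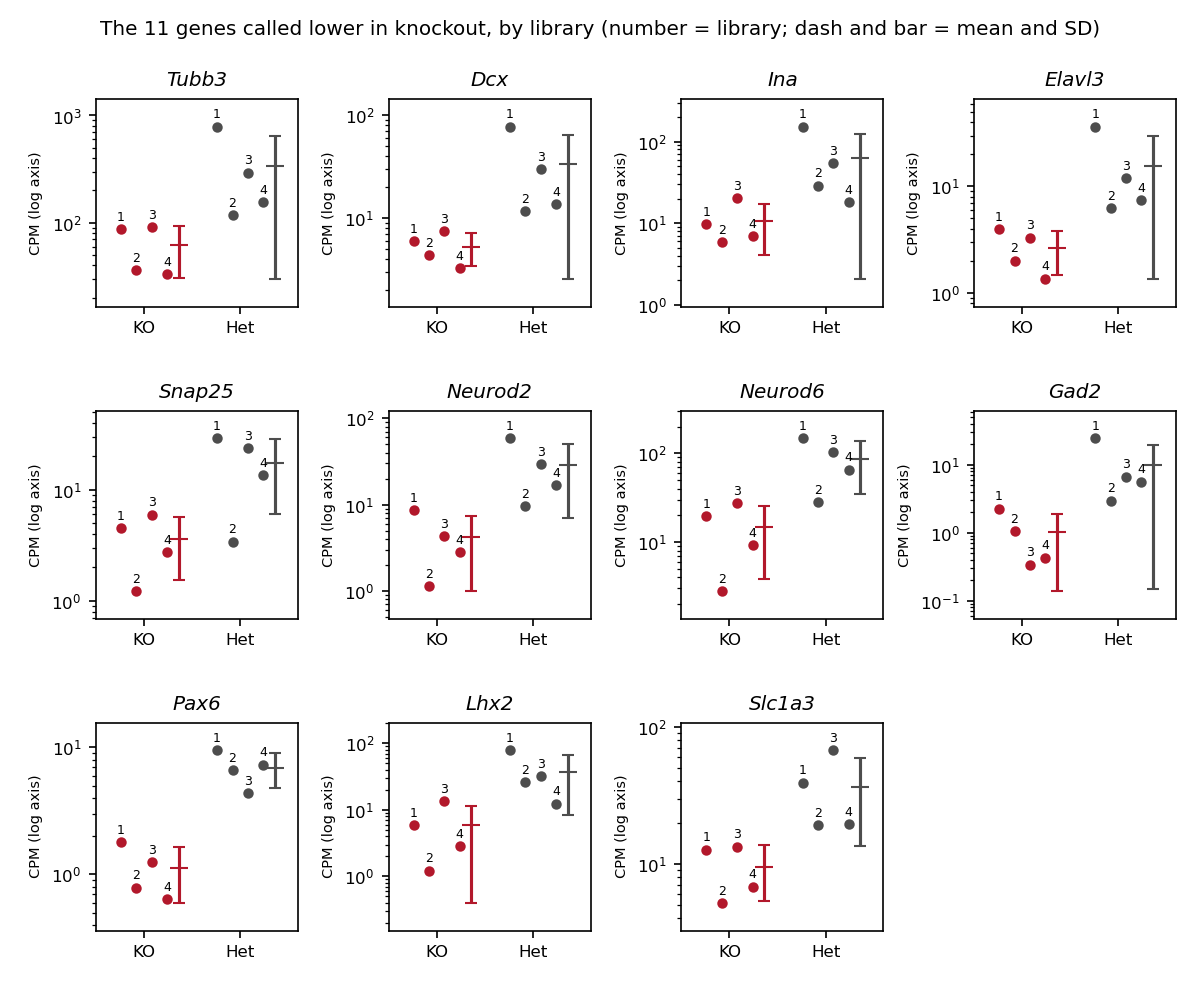
CPM on a log axis of the 11 called genes in each knockout (KO, red) and heterozygous (Het, grey) library, numbered 1 to 4; dash and bar are the mean and SD of 4 libraries. The groups do not overlap for 8 of the 11 genes, and Ina, Snap25 and Lhx2 overlap.

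The highest heterozygous library was the same for most of the 33 genes, and the other places in the order of libraries varied more. Heterozygous 1 was the highest heterozygous library for 29 of the 33 genes, against 27.4% of all tested genes, and for 20 of the 20 neuron genes. The exceptions were Hopx, Slc1a3, Ptprz1 and Tnc, for each of which heterozygous 3 was highest. Heterozygous 2 was the lowest heterozygous library for 18 genes and heterozygous 4 for 14. Among knockout libraries, knockout 3 was highest for 24 of the 33 genes (26.8% of all tested genes), and knockout 1 for the other 9. Knockout 2 was lowest for 23 genes (33.9% of all tested genes), knockout 4 for 9, and knockout 3 for Gad2. Genes counted in the same libraries are not independent of each other.

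The make-up of the neural signal varied between libraries. Neuron counts exceeded radial glia counts in all 8 libraries, by ratios of 1.21, 1.12, 1.03 and 1.52 in knockout 1 to 4, against 3.67, 1.87, 1.80 and 1.49 in heterozygous 1 to 4. With Hopx counted as a radial glia gene, the genotypes overlapped only between knockout 4 and heterozygous 4. Hopx, also known outside neural tissue, weighed unequally in these ratios. It held 417, 209, 365 and 476 of 3057, 673, 4762 and 1854 radial glia counts in knockout 1 to 4. In heterozygous 1 to 4 it held 115, 79, 415 and 282 of 5263, 1513, 10028 and 4369. Whether the ratio differs between genotypes without Hopx was not tested. The 6 excitatory lineage genes exceeded the 4 GABA lineage genes in summed counts, by 3.39, 1.5, 2.08 and 3.63 in knockout libraries, against 1.78, 2.96, 3.46 and 4.52 in heterozygous libraries. These ranges overlapped, and heterozygous 1, with the most neuron transcripts, had the lowest heterozygous ratio.

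**Figure D4:**
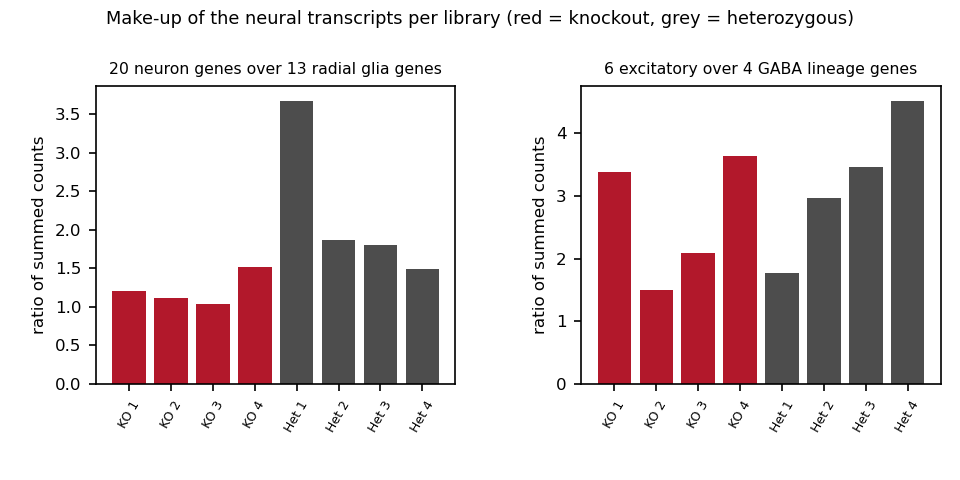
Ratio of summed counts of 20 neuron to 13 radial glia genes (left) and of 6 excitatory to 4 GABA lineage genes (right) in each knockout (KO, red) and heterozygous (Het, grey) library. The first ratio lies between 1.03 and 1.52 in knockout and between 1.49 and 3.67 in heterozygous libraries, and the second overlaps between genotypes.

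Lists of further neural genes gave the following counts. For comparison with these and the later lists, 4.02% of all tested genes were called lower and 5.53% higher. Of 25 other genes of neuron structure and synapse 12 were lower and 0 higher, with a median log2 fold change of -2.05. The log2 fold change was negative for 23 of the 25. Stx1a and Vamp2, named after their values were seen, had 0.34 ± 0.18 and 0.16 ± 0.25 and were not called. Chga, the granule protein chromogranin A, was at 1.28, 1.13, 1.31 and 0.692 CPM in knockout libraries, against 26.6, 8.60, 16.1 and 8.10 CPM in heterozygous libraries, and fell by 3.75 ± 0.50 on the log2 scale (edgeR adjusted p = 0.00224). Its knockout libraries were close to each other and far below every heterozygous one. The adhesion gene Ncam1 and the reticulon gene Rtn1 fell by 1.67 and 2.66 on the log2 scale (edgeR adjusted p = 0.0161 and 0.0172). Of 19 further genes of the excitatory cortical lineage 16 were tested and 4 were lower, among them the small GTPase gene Rnd2 and the transcription factor genes Bcl11b and Zbtb18, at log2 fold changes of -1.995, -2.60 and -2.09 (edgeR adjusted p = 0.0287, 0.0321 and 0.0357). Of 16 further GABA lineage genes 12 were tested and Lhx6, a factor of cortical interneurons, was lower, at a log2 fold change of -1.37 (edgeR adjusted p = 0.0361).

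Of 24 further genes of radial glia and neural progenitors 23 were tested, 3 were lower and 1 was higher. Ednrb, the endothelin receptor B gene, was at 115, 76.7, 141 and 96.7 CPM in knockout libraries, against 46.1, 22.7, 30.0 and 27.0 CPM in heterozygous libraries. It did not overlap and was higher by 1.77 ± 0.25 on the log2 scale (edgeR adjusted p = 0.00317). The Notch ligand gene Dll3 fell by 3.30 ± 0.55 on the log2 scale (edgeR adjusted p = 0.00609). Slc1a2, the glutamate transporter GLT-1, was also called and had 7, 1, 6 and 9 counts in knockout libraries, against 33, 29, 76 and 89 counts in heterozygous libraries. All 4 knockout libraries were under the filter level of 0.557 CPM, so Slc1a2 entered the test through the heterozygous libraries alone. This list also holds Vim, Nes, Hes1, Notch1 and Cdh2, known from endothelial cells as well, and its summed level of 2097 to 2395 CPM in knockout and 2069 to 2211 CPM in heterozygous libraries overlapped between genotypes.

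Genes that mark brain regions were read for what the labels leave unsaid. Of 6 telencephalon genes 4 were lower, and the summed level was 9.76 to 17.8 CPM in knockout and 41.9 to 99.7 CPM in heterozygous libraries. The forebrain gene Six3 fell by 3.10 on the log2 scale (edgeR adjusted p = 0.0204). Of 12 genes of diencephalon and midbrain 8 were tested and Lhx9 and Barhl2 were called lower, Lhx9 at a log2 fold change of -2.82 (edgeR adjusted p = 0.0259). Barhl2 had 5, 0, 2 and 8 counts in knockout libraries, against 55, 12, 40 and 26 counts in heterozygous libraries, and it too passed the filter through the heterozygous libraries alone. Of 12 hindbrain and cerebellum genes 2 were tested, Egr2 and Barhl1, and 0 were called (0 at an unadjusted p under 0.05). Barhl1 is also on the diencephalon and midbrain list, so it does not separate these regions. The hindbrain genes Hoxa2 and Hoxb2, chosen after their values were seen, were at 2.22 and 2.39 CPM in knockout 3 and at 0.768 CPM or less in every other library. The labels name no dissected region.

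Lists of other cell types that the sort could hold also had negative median log2 fold changes, at -1.53 for pericytes, -1.29 for microglia and -2.23 for erythroid cells, against 0.08 for endothelial genes. Of 13 pericyte and smooth muscle genes 12 were tested and 2 were lower, and their summed level was 41.9 to 619 CPM in knockout and 380 to 562 CPM in heterozygous libraries, led by Vtn and Kcnj8. Of 16 microglia and macrophage genes, among them C1qb, 1 was lower, where 4.02% of all tested genes were lower. The summed level of these 16 genes was 290 to 1308 CPM in knockout and 803 to 2101 CPM in heterozygous libraries. Of 10 erythroid genes 5 were tested and 2 were lower, and the summed level was 19.3 to 52.0 CPM in knockout and 237 to 611 CPM in heterozygous libraries, led by Hbb-y and Alas2. The adult globin genes Hba-a1, Hba-a2, Hbb-b1 and Hbb-bt are listed at 0 in every library. Knockout 3, the highest knockout library for neural genes, was also the highest knockout library for pericyte and for microglia genes, whereas heterozygous 3, second for neural genes, was the lowest heterozygous library for microglia and erythroid genes. The part of these cell types, and of the lower endothelial level of heterozygous 1, in the neural difference was not tested.

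**Figure D5:**
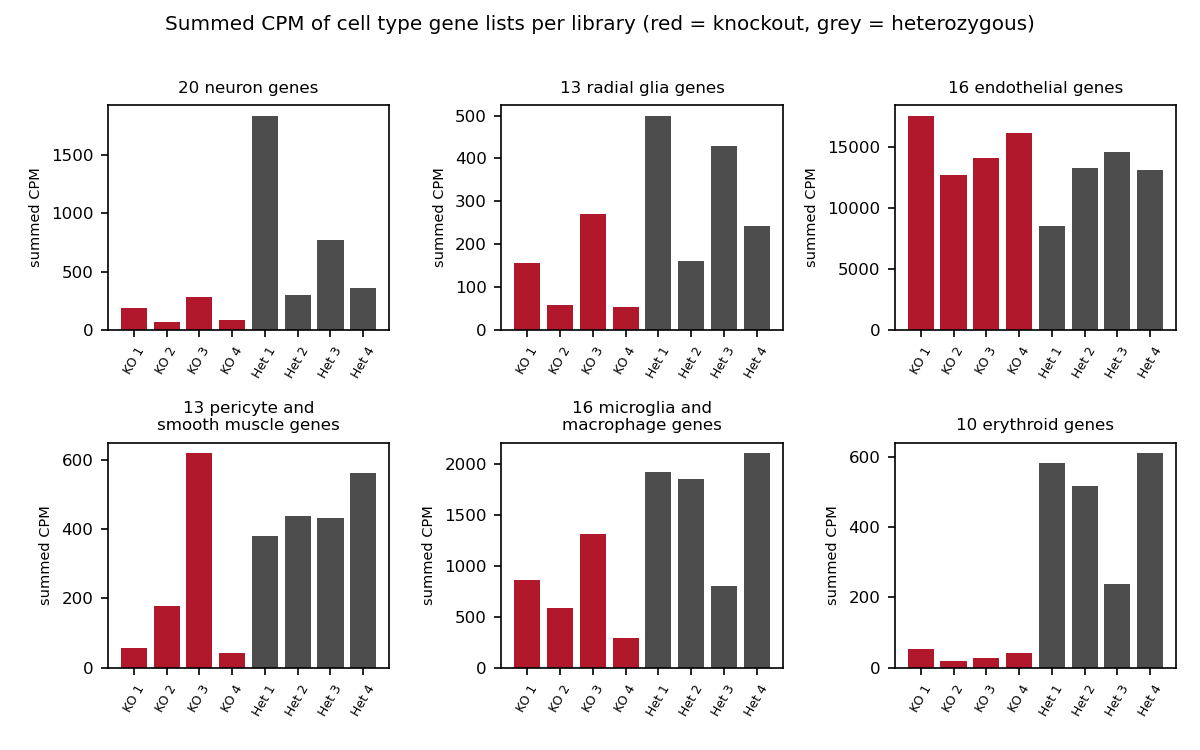
Summed CPM of 6 gene lists in each knockout (KO, red) and heterozygous (Het, grey) library. Neuron genes are highest in Het 1 (1837 CPM), where endothelial genes are lowest (8561 CPM), and erythroid genes are at 52.0 CPM or less in all knockout libraries and at 237 CPM or more in all heterozygous ones.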

How the data were processed

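RNA was taken from sorted endothelial cells of 8 libraries, with cDNA made by SMART-Seq v4 and libraries by Nextera XT, per the labels' protocols. The deposited table holds raw read counts per gene symbol, 1 column per library. The submitters' processing notes name TopHat2 0.7, Cufflinks 2.2.1 and mm10; the counting program, its strand setting and its treatment of multiply mapping reads were not given in the sources used here. Of the 33 genes, 14 share an exon with another annotated gene (GENCODE M21). For 12 such a gene is on the opposite strand, with Ina alone among called genes. Elavl3, also called, shares an exon with Gm49318 on the same strand, as do Neurod1 with Cerkl and Sox1 with Gm25239, neither called.

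The genes and lists were chosen with earlier results of these data known. Counts were analysed in R 4.3.3 with edgeR 4.0.16. Genes were kept by filterByExpr (minimum count 10, minimum total 15), which left 13540 genes with 99.9% of the counts, scaled by TMM. Knockout minus heterozygous was tested by the robust quasi-likelihood test without covariates, with Benjamini-Hochberg adjustment over all tested genes, and called at an adjusted p under 0.05. SE is the log2 fold change divided by the square root of F. CPM means are over 4 libraries per genotype with SD. Alternatives were limma 3.58.1 voom, DESeq2 1.42.0, other scalings, filters and thresholds, a replicate block, and leaving out libraries. Every called member and the most abundant of each of 7 role lists were described with values in every library. Of each wider neural or region list up to 3 called genes were named, by smallest p, or else the 2 most abundant, and cell type check lists were given by counts, summed levels and their most abundant genes. The floor of 3 counts covers counting error only, and SE and SD hold the spread between libraries. No library was a copy of another of its genotype: chi-square over degrees of freedom was 27.6 or more for each pair. Promoters come from RefSeq, assembly GRCm38.p6, the build of mm10. Values of some genes of the further lists are not reported here.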

Additional observations from a re-analysis of the deposited data

Results flagged for a closer look

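In 4 of the 66 gene and genotype groups of 4 libraries, 1 library lay far from the other 3 by Dixon's test at the 95% level, and chance flags about 1 group in 20. All 4 were knockout 3. It had 14.0 CPM of Map2, with the next knockout library at 4.04 CPM, and 7.80 CPM of the intermediate progenitor gene Eomes, with the next at 1.13 CPM. It had 9.40 CPM of Dlx1, with the next at 1.48 CPM, and 1.54 CPM of Sox1, with the next at 0.307 CPM. These genes vary together across libraries, so the 4 flags are not separate events.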

How the results depend on the processing

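With all libraries 8 neuron genes, 3 radial glia genes and 1293 genes in all were called. Over the 8 fits that left out 1 library these counts ran from 0 to 14, from 1 to 5 and from 579 to 1347. Without heterozygous 1 and knockout 2 they were 0, 0 and 842 (8 neuron and 4 radial glia genes at an unadjusted edgeR p under 0.05). Without heterozygous 2 and knockout 1, the libraries with Ddx3y and almost no Xist, they were 2, 0 and 300 (6 radial glia genes at an unadjusted p). At an adjusted p under 0.01 they were 0, 0 and 352, and at 0.10 all calls numbered 2081. Without a low-count filter 5 neuron genes were called. DESeq2 called 12 neuron genes, 6 radial glia genes and 2221 genes in all, voom with sample weights 12, 5 and 2266, and endothelial library sizes 856 in all. With the replicate block 5 radial glia and 11 neuron genes were called, and 868 in all. Deviations of same-numbered libraries from their group means correlated at 0.0244, 0.186, -0.0519 and -0.00670. For libraries of different number these correlations ran from -0.195 to 0.179. Such values cannot decide whether the numbers pair libraries, and the labels name no litter. Leaving out 1 library, the log2 fold change of Nefm ran from -1.90 to 0.18 (without heterozygous 1) and that of Tnc from -1.65 to 0.00468 (without heterozygous 3); Nefm was at 0.57 without heterozygous 1 and knockout 2. The other 31 members kept their direction in all 23 alternatives that tested them; Emx2 and Sox1 were not tested under a filter of 1 CPM. The cause of these changes was not tested. Depth limits Emx2, Sox1, Gad1 and Syt1 in knockout libraries. It also limits the called genes Pax6 and Gad2, with 9 to 35 and 6 to 44 counts per knockout library.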

Other observations

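Of 6 listed genes of oligodendrocyte precursors 5 were tested and 0 were called (edgeR). Their summed level was 13.3, 2.35, 10.7 and 6.23 CPM in knockout 1 to 4, against 35.5, 9.03, 44.9 and 17.3 CPM in heterozygous 1 to 4. Cspg5 was at 3.06 ± 1.41 CPM in knockout and 11.3 ± 6.72 CPM in heterozygous libraries (SD, n = 4 each) without overlap, with an edgeR adjusted p of 0.0510. Heterozygous 3, and not heterozygous 1, was the highest library for this list, as it was for the radial glia genes Slc1a3, Ptprz1 and Tnc.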
